A study of Mus musculus with 2 samples.

Results

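The genes described here are the collagens, chosen by name as every gene whose symbol is Col, a number, a and a number. The count tables held 44 such genes among 32285 gene rows, and the 26 with at least 50 unique molecular identifiers (UMIs, tags that mark single captured RNA molecules) over both libraries were kept. Of the other 18, 6 had no UMI in either library. Single cells of tumours from BALB/c mice were profiled with a droplet 3′ kit in 2 libraries, 1 labelled with a mock genotype and 1 labelled as PTIR1-expressing, and the samples' source was given as tumour-infiltrating lymphocytes. PTIR1 is named in the series' title as a suppressor of the immunoproteasome. The labels give no age, sex, time or number of mice, nor the cells that carry PTIR1. With 1 library per group there was no replicate, so no difference between the genotypes could be tested against the spread between animals. Intervals are at the 95% level and hold the error of counting alone.

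Collagens are secreted proteins built from 3 chains wound into a helix. Fibrillar collagens (types I, III and V among them) form the fibres of connective tissue, type IV forms the mesh of basement membranes, type VI forms beaded filaments around cells, and types VIII and X form open networks. Fibroblasts are the usual source of the fibrillar and type VI chains in solid tumours, and each helix needs its chains in fixed proportions, hydroxylation of its prolines and lysines, and chaperones in the endoplasmic reticulum.

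Each cell was placed in a gate by which of 5 marker lists held most of its UMIs, with no collagen in any list. A gate led by fibroblast markers held 29 cells in the Mock library and 606 in the PTIR1 library. A tumour gate, from a list for CT26 (a colon carcinoma line of BALB/c mice, not named in the sample labels), held 192 and 177 cells, and the immune gate held 8040 and 6060. Libraries held 95166611 and 98540561 UMIs over 10833 and 9006 barcodes, 30 barcodes occurred in both, and the median depth of kept cells was 2947.5 UMIs (Mock) and 7016 UMIs (PTIR1). Cells of the 2 collagen-rich gates were far deeper, with medians of 28148 and 23395 UMIs in the first gate and 72396.5 and 48128 in the tumour gate.

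The markers were divided on the fibroblast label, so that gate is called the decorin-led gate here. Decorin (Dcn, a small proteoglycan that binds collagen fibrils) stood at 1708 and 2530.1 UMIs per 1000000 UMIs of the gate (CPM) in Mock and PTIR1, against 119 and 126 CPM in the tumour gate. Serpinf1 was 166 and 251 CPM against 37.9 and 109 CPM, Pdgfrb 57.7 and 93.8 CPM against 6.68 and 18.6 CPM, Dpt 37.2 and 58.7 CPM against 0.709 and 4.22 CPM, and Pdgfra 31.6 and 56.3 CPM against 5.91 and 10.6 CPM. Of the 13 fibroblast markers, however, 6 were under 10 CPM in each library. Fbln1 was at 0 in both, Mmp2 at 0 and 1.24 CPM, Fap at 1.86 and 7.42 CPM, and Lum at 1.86 and 50.5 CPM. Of 12 further fibroblast genes, listed after the data were seen, 8 in Mock and 5 in PTIR1 had no UMI in the gate, periostin, lysyl oxidase and Cxcl12 among them. Some others of that list were low but above the tumour gate, as elastin (Eln) at 9.30 and 2.67 CPM against 0.650 and 0.184 CPM. In all, 11 of the 12 were under 10 CPM in each library and the remaining gene was above it. The list summed to 103 and 73.4 CPM in the decorin-led gate, against 29.6 and 39.0 CPM in the tumour gate. Of the tumour markers Tm4sf1 remained high there, at 660.4 and 689 CPM, against 1051 and 956 CPM in the tumour gate. It made up most of the list's sum, 779 and 798 CPM against 1377 and 1372 CPM. Other tumour markers were lower still relative to the tumour gate. Areg was 8.37 and 9.11 CPM against 64.8 and 65.6 CPM, and Krt20 24.2 and 18.5 CPM against 100.4 and 102 CPM. Ereg was 77.2 and 72.9 CPM against 142 and 215 CPM, and Krt18 9.30 and 7.55 CPM against 18.8 and 32.8 CPM. Leaving out the gate markers and the collagens, log2(CPM + 1) of the decorin-led and tumour gates correlated across genes at r = 0.898 (Mock) and 0.920 (PTIR1), where the macrophage subset and the tumour gate gave 0.651 and 0.659. Genes are not independent replicates, and these r values are descriptions. No endothelial or pericyte gate held a cell, and their markers summed to at most 4.87 CPM and 0.520 CPM in these gates. Of the 13 tumour markers, 7 in Mock and 5 in PTIR1 had no UMI in the tumour gate itself. The cut between the gates ran through a continuum, with 15 of 221 Mock cells (6.79%) and 111 of 783 PTIR1 cells (14.2%) having a fibroblast-list share of 40 to 60% of both lists' UMIs.

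Upstream sequences are shown for the members with at least 200 UMIs in the PTIR1 decorin-led gate whose window overlapped no annotated exon, because the members fell into those that differed between the libraries and those that did not. Col3a1, Col6a3 (from 2 Mock UMIs) and Col10a1 (from 1) were at least 2-fold higher in PTIR1, and Col8a1 and Col5a1 were not. Each line holds the 250 bases before the start on the gene's strand, 5′ to 3′, from RefSeq on GRCm38.p6. Capitals mark 3 motifs searched on both strands. The first was the TATA box, spelled TATAAA. Another was the CCAAT box, spelled as its name. The last was the GC box, spelled GGGCGG.
Col3a1, chr1:45311288-45311537, plus strand: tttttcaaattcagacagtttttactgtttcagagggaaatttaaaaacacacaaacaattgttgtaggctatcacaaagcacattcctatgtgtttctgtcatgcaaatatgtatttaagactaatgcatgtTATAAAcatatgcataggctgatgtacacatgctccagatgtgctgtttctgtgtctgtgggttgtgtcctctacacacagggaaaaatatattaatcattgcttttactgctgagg
Col6a3, chr1:90843972-90844221, minus strand: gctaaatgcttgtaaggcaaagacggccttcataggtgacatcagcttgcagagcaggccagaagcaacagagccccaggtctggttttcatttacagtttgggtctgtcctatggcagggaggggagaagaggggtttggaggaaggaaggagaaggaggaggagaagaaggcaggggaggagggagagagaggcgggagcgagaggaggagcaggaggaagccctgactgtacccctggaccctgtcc
Col10a1, chr10:34389731-34389980, plus strand: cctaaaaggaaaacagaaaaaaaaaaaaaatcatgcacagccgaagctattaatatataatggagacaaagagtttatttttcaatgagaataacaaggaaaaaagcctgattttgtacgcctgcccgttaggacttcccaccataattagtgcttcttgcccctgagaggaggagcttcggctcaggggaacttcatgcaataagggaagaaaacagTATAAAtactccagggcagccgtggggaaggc
Col8a1, chr16:57754738-57754987, minus strand: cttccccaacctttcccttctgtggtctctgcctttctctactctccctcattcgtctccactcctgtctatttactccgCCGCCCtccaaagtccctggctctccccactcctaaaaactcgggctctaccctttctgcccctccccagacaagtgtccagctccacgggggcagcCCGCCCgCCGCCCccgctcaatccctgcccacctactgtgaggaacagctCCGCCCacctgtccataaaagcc
Col5a1, chr2:27886175-27886424, plus strand: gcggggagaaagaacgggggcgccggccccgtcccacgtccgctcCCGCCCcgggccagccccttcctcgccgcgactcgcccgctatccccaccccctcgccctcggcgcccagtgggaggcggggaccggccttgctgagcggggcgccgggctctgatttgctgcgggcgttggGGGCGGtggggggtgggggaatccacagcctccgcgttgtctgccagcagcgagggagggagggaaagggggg
A TATA box began 117 bases before the start in Col3a1 and 32 bases before it in Col10a1. Col8a1 held 4 GC boxes, at 170, 73, 66 and 23 bases before the start, and Col5a1 held 2, at 205 and 73. The Col6a3 window held none of the 3 motifs. Among 32851 windows of the same length, 12.4% held a TATA box, 33.8% a CCAAT box and 32.7% a GC box, so these matches are common and describe the letters alone. RefSeq windows matched 23 of the 26 members.

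The collagen genes together made up 1679.9 CPM of the Mock decorin-led gate and 2275 CPM of the PTIR1 decorin-led gate. The tumour gate held 774 and 1005 CPM, and the immune gate 38.2 and 107 CPM. Collagen RNA was thus read well outside the decorin-led cells: of the collagen UMIs of kept cells, the tumour gate held 69.7% in Mock and 18.7% in PTIR1, and the decorin-led gate 9.62% and 59.7%. Those shares follow the number of cells in each gate as well as the level per cell. The 7 fibrillar members took 72.5% and 65.2% of the collagen UMIs of the decorin-led gate, and 64.4% and 65.9% in the tumour gate. The 4 basement membrane members took between 13.0% and 17.5% in those gates.

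**Figure D1:**
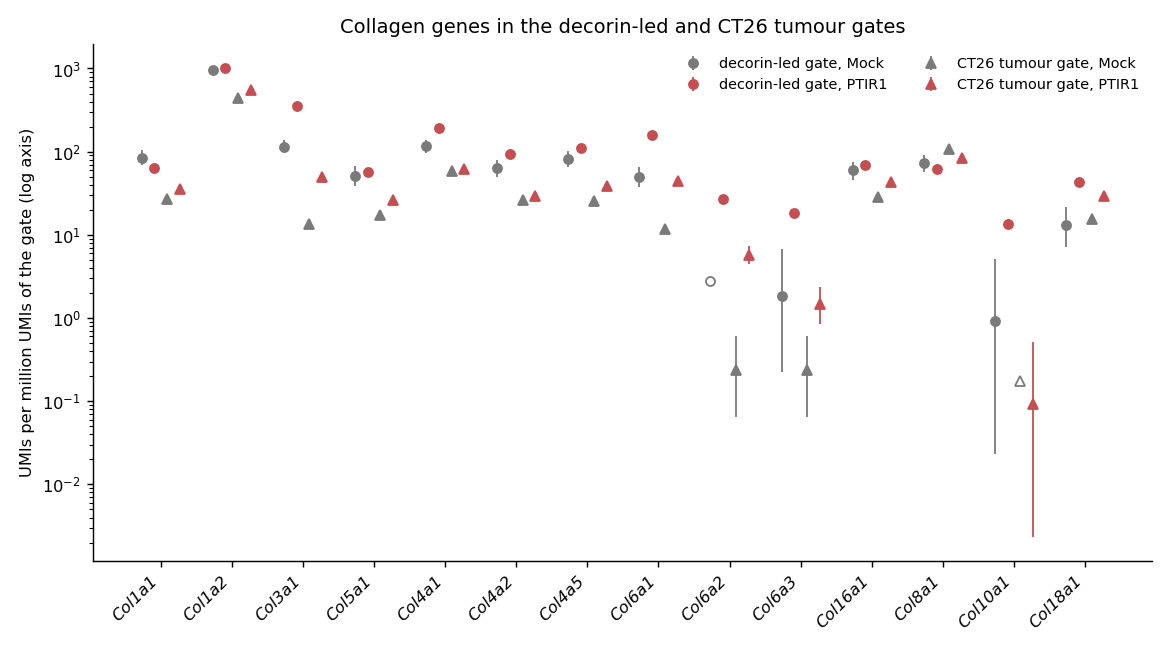
Level of the 14 collagen genes with at least 50 UMIs over both libraries in the decorin-led gate, in CPM on a log axis. Circles are the decorin-led gate and triangles the tumour gate. Grey is the Mock library, red the PTIR1 library, bars are 95% counting intervals, and open symbols are genes with no UMI, drawn at the level of 3 UMIs. Col1a2 is highest in every gate, and Col3a1, Col6a1, Col6a2 and Col6a3 lie higher in PTIR1 than in Mock in both gates.

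Type I collagen led every gate through 1 of its 2 chains. Col1a2 (chr6:4504814-4541544, plus strand), the α2 chain, was 967 CPM in Mock and 1010.4 CPM in PTIR1 in the decorin-led gate, and 440.4 and 550.1 CPM in the tumour gate. The median single-cell levels in the decorin-led gate were close, at 938 and 945 CPM, and 0 of 29 Mock and 4 of 606 PTIR1 cells lacked a UMI. Col1a1 (chr11:94936224-94953042, plus strand), the α1 chain, was far lower at 84.6 and 63.4 CPM in the decorin-led gate and 26.9 and 35.1 CPM in the tumour gate. Col1a2 UMIs outnumbered those of Col1a1 by 11.4 (interval 9.22 to 14.3) in the Mock decorin-led gate and 15.9 (14.9 to 17.0) in PTIR1, and by 16.4 and 15.7 in the tumour gate. A 3′ library gives 1 tag per captured molecule whatever the transcript's length, but capture can differ between genes, so these are ratios of captured tags. The type I protein usually holds α1 chains in excess of α2, the opposite order.

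Type III collagen, a partner of type I in loose connective tissue, was the second member of the PTIR1 decorin-led gate. Col3a1 (chr1:45311538-45349706, plus strand) was 114 CPM (123 UMIs) in Mock and 349 CPM (5368 UMIs) in PTIR1 there, and 13.6 and 49.0 CPM in the tumour gate. The PTIR1 level was higher in both gates, 3.05-fold (2.55 to 3.68) and 3.61-fold (3.08 to 4.23). Single decorin-led cells ranged from 0 to 562 CPM in Mock, median 66.5, and from 0 to 3216 CPM in PTIR1, median 158. The cells of the 2 libraries overlapped, with the PTIR1 upper quartile at 439 CPM against 163 CPM in Mock. When each cell was thinned to 2000 UMIs, 6 of 29 Mock cells (20.7%, 7.99 to 39.7) and 221 of 605 PTIR1 cells (36.5%, 32.7 to 40.5) had a Col3a1 UMI, against 72.4% and 83.0% unthinned. The intervals of those shares overlapped. B cells, which should lack the gene, had 0.243% and 1.67% at the same depth.

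Type V collagen starts fibrils inside type I fibres. Col5a1 (chr2:27886425-28039514, plus strand) was 51.2 and 57.6 CPM in the decorin-led gate and 17.1 and 26.2 CPM in the tumour gate. Its usual partner chain Col5a2, under 50 UMIs in all and so not a member, had 0 and 9 UMIs in the decorin-led gate and 1 and 0 in the tumour gate. Col5a3 had 0 and 41 UMIs in the decorin-led gate and 9 and 20 in the tumour gate. Col5a2 is the tail-to-tail neighbour of Col3a1, 24614 bases away on the opposite strand, so a gene with many captured UMIs lies beside 1 with few. Capture can differ between genes, so few UMIs need not mean little transcription. Col16a1 (chr4:130047840-130099283, plus strand), a fibril-associated collagen, was 59.5 and 69.3 CPM in the decorin-led gate and 28.4 and 43.5 CPM in the tumour gate.

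Among the basement membrane chains, Col4a1 (chr8:11198423-11312826, minus strand) was 116 and 194 CPM in the decorin-led gate and 58.3 and 61.7 CPM in the tumour gate. Col4a2 (chr8:11312805-11449287, plus strand), which pairs with it in the main type IV helix and is transcribed from the other strand of a shared start region, was 63.3 and 92.7 CPM, then 26.1 and 29.4 CPM. The ratio of Col4a1 to Col4a2 UMIs stayed between 1.84 and 2.24 in the 4 gate and library pairs, with overlapping intervals. The 2 genes overlap by 22 bases, and the sources used here do not say whether counting used strand. Col4a5 (chrX:141475385-141689234, plus strand), part of a second type IV network, was 81.9 and 110.2 CPM in the decorin-led gate and 25.8 and 38.5 CPM in the tumour gate. Its head-to-head neighbour and usual partner Col4a6 had 0 and 1 UMIs in the decorin-led gate and 1 and 3 in the tumour gate, so the Col4a5 chain was read almost alone. Col18a1 (chr10:77052178-77166548, minus strand), a basement membrane proteoglycan core, was 13.0 and 43.2 CPM in the decorin-led gate and 15.3 and 29.6 CPM in the tumour gate. It overlaps Slc19a1 on the opposite strand, as Col9a3 overlaps Tcfl5 and Col10a1 overlaps Nt5dc1. Col4a1, Col4a2, Col5a1, Col14a1 and Col15a1 likewise overlap predicted genes on the opposite strand. Without strand the reads of these genes cannot be told apart. Col20a1 overlaps BX649560.1 on the same strand, where strand would not separate them.

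Type VI collagen needs 3 chains, and these were unevenly read. Col6a1 (chr10:76708792-76726168, minus strand) was 50.2 CPM (54 UMIs) and 158 CPM (2423 UMIs) in the decorin-led gate, and 11.7 and 44.8 CPM in the tumour gate. Col6a2 (chr10:76595762-76623630, minus strand), 85161 bases away on the same strand, had 0 UMIs in the 29 Mock decorin-led cells and 409 UMIs (26.6 CPM) in PTIR1. In the tumour gate it had 4 UMIs (0.236 CPM) in Mock and 63 UMIs (5.79 CPM) in PTIR1. Col6a3 (chr1:90765923-90843971, minus strand) had 2 and 278 UMIs in the decorin-led gate and 4 and 16 in the tumour gate. In Mock, Col6a1 UMIs therefore outnumbered those of Col6a2 by 49.5 (19.0 to 183) in the tumour gate, while in PTIR1 the ratio was 7.75 (5.95 to 10.2) there and 5.92 (5.33 to 6.59) in the decorin-led gate. The intervals of the Mock and PTIR1 tumour gates did not overlap, so the balance of these 2 chains differed between the libraries by more than counting error, though from 4 Mock UMIs of Col6a2. For Col6a1 against Col6a3 the intervals overlapped, at 49.5 (19.0 to 183) and 30.5 (18.6 to 53.8).

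The network collagen Col8a1 (chr16:57624258-57754737, minus strand), a short chain known from endothelium and vessel walls, was lower in the decorin-led gate than in the tumour gate in both libraries. It was 72.6 and 61.4 CPM in the decorin-led gate and 108 and 84.2 CPM in the tumour gate, where it was the second collagen after Col1a2. Its partner Col8a2 had no UMI in any of these 4 gates. Col10a1 (chr10:34389981-34397085, plus strand), the collagen of hypertrophic cartilage, had 1 UMI in the Mock decorin-led gate and 207 UMIs (13.5 CPM) in PTIR1, and 0 and 1 in the tumour gates. Those 207 UMIs lay in 31 of 606 cells (5.12%, 3.50 to 7.18), and 1 cell held 53 of them. The Mock UMI lay in 1 of 29 cells (3.45%, 0.0873 to 17.8), so the shares of cells with a UMI did not differ beyond counting error.

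Within each library, collagens were higher in the decorin-led gate than in the tumour gate. In Mock, 11 members had at least 50 UMIs over both gates, and 8 were at least 2-fold higher in the decorin-led gate, against 10.2% of all 9846 genes measured. In PTIR1, 9 of 15 members were at least 2-fold higher, against 12.5% of 10761 genes. Of those 9, Col6a3 and Col10a1 had 16 and 1 UMIs in the tumour gate. They reached the 50-UMI limit only through the decorin-led gate. No member was 2-fold lower in either library, where 8.70% and 6.50% of all genes were. The median log2 ratio of the members was 1.28 in Mock and 1.52 in PTIR1, beside 0.06 and 0.22 over all genes. Col3a1 led among members with at least 50 UMIs in the gates of both libraries, at 8.41-fold (6.70 to 10.5) and 7.12-fold (6.51 to 7.80), followed by Col6a1 at 4.29-fold (3.12 to 5.82) and 3.52-fold (3.19 to 3.88). The size of the Col3a1 ratio depended on the gate: with at least 5 markers required it was 43.7-fold in Mock, and with at least 70% of marker UMIs 14.1-fold in PTIR1. Col6a3 was 12.3-fold (7.44 to 21.8) and Col6a2 4.60-fold (3.52 to 6.09) higher in PTIR1, with too few UMIs in Mock. Col1a2 was 2.20-fold (2.06 to 2.34) and 1.84-fold (1.78 to 1.89) higher, just either side of the 2-fold limit. Col8a1 alone of the measured members was lower beyond counting error in both libraries, at 0.671 (0.528 to 0.842) and 0.729 (0.665 to 0.799) of the tumour level.

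The same members followed the continuum between the gates. Cells of both gates were cut into 5 bins by the fibroblast list's share of both lists' UMIs, with 10 to 149 Mock and 68 to 304 PTIR1 cells per bin. Col3a1 went from 6.86 CPM in the lowest Mock bin through 34.5, 33.9 and 74.5 CPM to 278 CPM in the highest, and from 28.3 through 79.9, 161 and 298 CPM to 445 CPM in PTIR1. Its PTIR1 level was above the Mock level in each of the 5 bins, with intervals apart. Col1a2 went from 414 to 1279 CPM in Mock and from 461 to 1037 CPM in PTIR1, so its order between the libraries was reversed at the top. Col6a1 went from 11.6 to 69.5 CPM and from 33.2 to 197 CPM, and Col6a2 from 3.48 to 35.6 CPM in PTIR1. Col8a1 ran the other way, from 103 to 41.7 CPM and from 82.4 to 58.3 CPM. The 3 upper Mock bins held 15, 10 and 11 cells. Other measures moved along the same bins: median depth went from 73401 to 23015 UMIs in Mock and from 55639 to 21532 in PTIR1, a list of 10 cell cycle genes from 1802 to 52.1 CPM and from 1302 to 61.8 CPM, and a list of 10 immediate early genes, which respond to cell stress and dissociation, from 2567 to 9896 CPM and from 4589 to 14109 CPM. Immune marker UMIs, which only other cells should give, went from 70.7 to 181 CPM and from 67.5 to 235 CPM. Their part in the collagen levels was not tested.

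**Figure D2:**
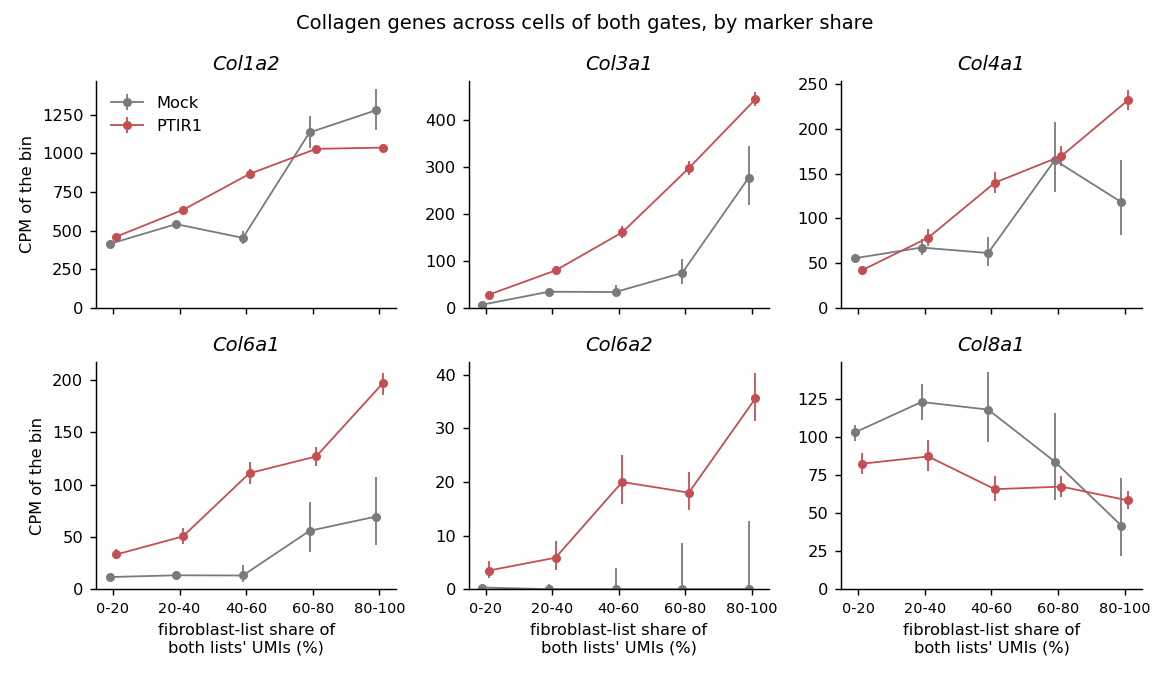
Level of 6 collagen genes (CPM of the bin, linear axes from 0) in cells of both gates, binned by the fibroblast list's share of the UMIs of the fibroblast and tumour lists. Grey is Mock, red is PTIR1, and bars are 95% counting intervals. Col3a1, Col6a1 and Col6a2 lie higher in PTIR1 in every bin and reach 445, 197 and 35.6 CPM in its top bin, while Col8a1 is lowest in the top bin of both libraries.

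Between the libraries, 14 members were measured in the decorin-led gate and 6 were at least 2-fold higher in PTIR1, against 5.44% of 10111 genes. None was 2-fold lower, against 3.10% of genes. The 6 were Col3a1, the 3 type VI chains, Col10a1 and Col18a1. Col6a1 was 3.14-fold (2.40 to 4.19) and Col18a1 3.32-fold (1.96 to 6.10) higher. Col6a2, with no Mock UMI, was at least 9.53-fold higher, taking 3 UMIs over the Mock gate as its floor, with 7.72 as the lower limit of its counting interval. That bound was 4.20 where a list had to hold at least 70% of marker UMIs. Col6a3, from 2 Mock UMIs, was 9.72-fold higher with an interval of 2.67 to 80.7, and Col10a1, from 1 Mock UMI, 14.5-fold with an interval of 2.57 to 574. The Col10a1 interval treats UMIs as independent, though 1 PTIR1 cell held 53 of its 207 UMIs. Its share of cells with a UMI was 3.45% in Mock and 5.12% in PTIR1. The median log2 ratio of the members was 0.65, beside 0.01 over all genes. Tighter gates narrowed this list: Col3a1 came to just under 2-fold where a list had to hold at least 70% of a cell's marker UMIs, and Col18a1 to 1.79-fold where at least 5 markers were required. With cells thinned to 2000 UMIs, 10 members were measured and Col3a1 (2.22-fold) and Col6a1 (2.99-fold) were the 2 of the 6 still called. Col5a1 (2.97-fold), Col4a2 (2.52-fold) and Col4a1 (2.24-fold) were then called higher as well, and Col1a1 was called lower at 0.452. Few Mock UMIs stood behind these thinned ratios. Of 29 Mock cells, 1 had a UMI of Col5a1, 1 of Col4a2, 2 of Col6a1 and 5 of Col4a1. Col3a1 and Col1a1 were each found in 6.

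The other 8 members of that gate differed less. Col4a1 was 1.67-fold (1.40 to 2.02), Col4a2 1.47-fold (1.15 to 1.90) and Col4a5 1.35-fold (1.09 to 1.69) higher in PTIR1. For Col1a2 (1.04), Col5a1 (1.13), Col16a1 (1.16) and Col8a1 (0.846) the interval of the ratio held 1. Col1a1 was 0.749 (0.603 to 0.938) of its Mock level, and 0.964 without the deepest Mock cell, which held 161989 of the gate's 1075090 UMIs. The intervals of Col1a2 (up to 1.11) and Col5a1 (up to 1.51) lay wholly below those of Col3a1 and Col6a1, as measured at full depth. At equal depth the Col5a1 ratio (2.97) was no lower than that of Col3a1 (2.22). There 1 of 29 Mock cells had a Col5a1 UMI, too few to decide the contrast with type V. The Col1a2 ratio at that depth was 1.12.

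**Figure D3:**
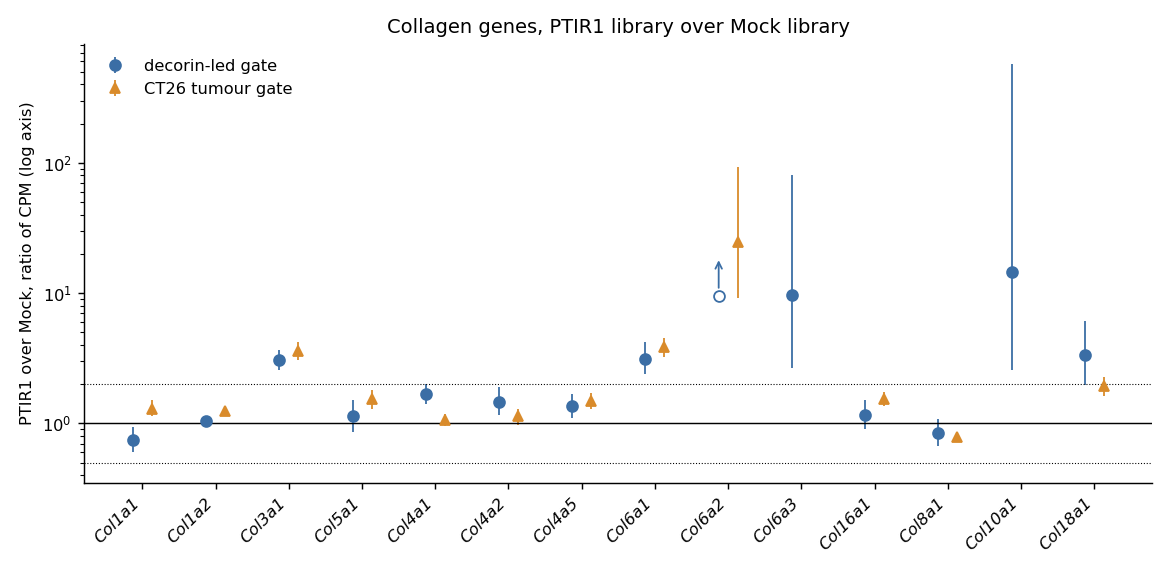
Ratio of PTIR1 over Mock CPM (log axis) for collagen genes with at least 50 UMIs in the decorin-led gate (blue circles) or the tumour gate (orange triangles). Bars are 95% counting intervals, the open symbol with an arrow is a lower bound for a gene with no Mock UMI, the solid line is 1 and dotted lines mark 2-fold. Col3a1, Col6a1 and Col6a2 lie above 2-fold in both gates.

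In the tumour gate 12 members were measured and 3 were at least 2-fold higher in PTIR1, against 2.17% of 10390 genes, with none 2-fold lower, against 1.56%. These were Col3a1, Col6a1 at 3.83-fold (3.24 to 4.54) and Col6a2 at 24.5-fold (9.10 to 92.6). With at least 5 markers required, 11 members were measured and Col3a1 (11.9-fold) and Col6a1 (2.20-fold) were called higher, while Col4a1 was called lower at 0.499 of Mock. Under that gate Col4a5 was 0.636, Col4a2 0.708, Col1a1 0.935 and Col1a2 0.950 of Mock, so the directions given next for Col1a1, Col1a2 and Col4a5, and above 1 for Col4a1 and Col4a2, turned. Col18a1 was just under the limit at 1.93-fold (1.63 to 2.28), and passed it without the deepest Mock cell, which took the count to 4. Col1a2 was 1.25-fold (1.21 to 1.29), Col1a1 1.30-fold (1.14 to 1.50), Col5a1 1.53-fold (1.30 to 1.81), Col16a1 1.53-fold (1.35 to 1.75) and Col4a5 1.49-fold (1.30 to 1.71) higher. Col4a1 (1.06) and Col4a2 (1.13) had intervals that held 1. Col8a1 was 0.779 (0.719 to 0.844) of its Mock level. The median log2 ratio of the members was 0.60, beside -0.06 over all genes.

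The composition of the gates differed between the libraries along with these ratios. In the decorin-led gate the 13 fibroblast markers summed to 2151 CPM in Mock and 3214 CPM in PTIR1, the immediate early list summed to 7638 and 13531 CPM with all 10 genes detected in both libraries, the cell cycle list to 182 and 97.3 CPM, and the 9 immune markers to 111 and 182 CPM. Their part was not tested. Weighting the 5 bins of marker share equally in both libraries used cells of both gates together. It therefore does not make marker content alike within the decorin-led gate. Under that weighting Col3a1 was 2.37-fold, Col6a1 3.17-fold, Col18a1 2.45-fold and Col6a3, from few Mock UMIs, 5.64-fold higher in PTIR1. Col1a2 was then 1.05-fold higher and Col8a1 0.770 of Mock. With both gates simply joined, where Mock cells are mostly of the tumour gate, Col3a1 was 11.5-fold and Col1a2 1.74-fold higher.

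Within the 606 PTIR1 decorin-led cells, members varied together to different degrees. Spearman's rho of single-cell CPM was 0.49 for Col4a1 with Col4a2, 0.48 for Col1a2 with Col1a1, 0.45 for Col1a2 with Col3a1 and 0.32 for Col6a1 with Col6a2. It was 0.00 for Col3a1 with Col8a1 and -0.08 for Col8a1 with Col6a1. The cells share 1 library, and zeros shared by shallow cells enter these values, which are descriptions. A split of the gate into universal and myofibroblast states could not be made, because 0 Mock and 1 PTIR1 cells had more myofibroblast than universal marker UMIs. Universal marker UMIs led in all 29 Mock cells and in 577 of the 606 PTIR1 cells, and 28 PTIR1 cells were tied. Cd34, of the universal list, was 226 CPM in Mock and 164 CPM in PTIR1.

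Genes that make, modify or bind collagen were read from 4 lists. Of 17 modifying enzymes and chaperones, 14 were measured in the decorin-led gate between libraries, with 0 at least 2-fold higher and 1 lower in PTIR1, beside 5.44% and 3.10% of all genes. These counts do not set the list apart. The lower gene was P4ha2, a catalytic subunit of prolyl 4-hydroxylase, at 0.413 (0.262 to 0.682) of the Mock level, and 0.353 (0.277 to 0.446) in the tumour gate. Its paralog P4ha1 was 0.596 and 0.516 of Mock, and the collagen chaperone Serpinh1 0.813 and 0.950. The median log2 ratio of the list was -0.08 in the decorin-led gate. In the tumour gate Plod2, which hydroxylates telopeptide lysines, was 0.539 (0.460 to 0.631) of Mock. None of the 14 enzyme and chaperone genes measured shared the 2-fold difference of the type III and VI chains.

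The processing and crosslinking list was sparse, with 3 of 11 genes measured in the decorin-led gate, 0 past 2-fold either way and 4 at 0 in both libraries, Lox among them. Pcolce, which enhances removal of the C-propeptide, stood at 591 and 620.0 CPM. Between the gates 2 of 5 measured genes were at least 2-fold higher in the decorin-led gate and 1 lower in Mock, and 1 higher and 2 lower in PTIR1, counts too small to set against the 10.2% and 8.70% of all genes in Mock and 12.5% and 6.50% in PTIR1. Bmp1, the C-propeptide protease, was 4.71-fold (3.40 to 6.44) higher in the decorin-led gate in Mock and 2.57-fold (2.19 to 3.04) in PTIR1, and Loxl4 was 0.216 (0.120 to 0.371) of the tumour level in PTIR1. Among 10 receptor genes 5 were measured and 0 differed 2-fold between libraries in either gate. Over all genes 5.44% were higher and 3.10% lower in the decorin-led gate, and 2.17% and 1.56% in the tumour gate. Between gates 2 of the 5 were at least 2-fold higher in the decorin-led gate in Mock and 1 in PTIR1. That was against 10.2% and 12.5% of all genes, and 5 genes are too few to set against those shares. The collagen endocytosis receptor Mrc2 was 4.28-fold (2.63 to 6.71) and 3.31-fold (2.66 to 4.17) higher in the decorin-led than in the tumour gate.

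Of 6 collagen-binding proteins, 4 were measured, and biglycan (Bgn), a proteoglycan related to decorin, was the 1 that was 2-fold higher in PTIR1 in the decorin-led gate. Over all genes 5.44% were higher there, and 4 genes are too few to set against that share. Biglycan was the gene of the 4 named first below. Its level was 37.2 CPM in Mock and 117 CPM in PTIR1, a ratio of 3.15 (2.30 to 4.42), and 8.93 and 16.1 CPM in the tumour gate, a ratio of 1.80 (1.44 to 2.25). Thrombospondin 2 (Thbs2) was 1.60-fold (1.36 to 1.90) higher and Sparc 0.685 (0.615 to 0.765) of Mock in the decorin-led gate. Between gates, 3 of the 4 were at least 2-fold higher in the decorin-led gate in each library, against 10.2% and 12.5% of all genes. Bgn was 4.17-fold and 7.28-fold, and Thbs2 2.25-fold and 3.44-fold, higher there.

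In the immune gate, collagens of the first gates were read at a few percent of their level in those gates. For the 11 Mock and 15 PTIR1 members with at least 50 UMIs in the joined decorin-led and tumour gates, the immune level was 2.73 to 6.20% of the joined level in Mock and 4.18 to 7.46% in PTIR1. The lowest were Col1a1 and Col10a1 and the highest Col4a2 and Col6a3. The shares differed between members beyond counting error, as for Col1a2 (3.01%, 2.81 to 3.21) and Col4a1 (5.98%, 5.21 to 6.86) in Mock, and within single subsets they spread further, up to 30.7% for Col6a2 in the PTIR1 dendritic cell subset. Of 24 measured members, 12 were at least 2-fold higher in the PTIR1 immune gate, against 3.37% of 13588 genes, with none 2-fold lower, against 1.02%. Among those higher, Col6a2, Col6a3, Col5a1 and Col18a1 had 4, 8, 45 and 48 Mock UMIs and reached the 50-UMI limit only through PTIR1. Col3a1 was 0.970 and 12.4 CPM there. In the B cell subset the collagens summed to 14.1 CPM in Mock and 94.2 CPM in PTIR1, and in the other 5 PTIR1 subsets to between 85.1 CPM (macrophage) and 154 CPM (neutrophil). The part of free RNA in these levels was not tested. In Mock the immune subsets were not alike. Col1a2 was 59.6 CPM (49.9 to 70.7) in the mast cell or basophil subset, 22.6 CPM (20.2 to 25.3) in the T or NK cell subset and 3.18 CPM (1.28 to 6.54) in the B cell subset, which differed beyond counting error. The mast cell or basophil subset was also shallow, with a median of 1101 UMIs per cell over 737 cells, and the part of depth in its level was not tested.

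**Figure D4:**
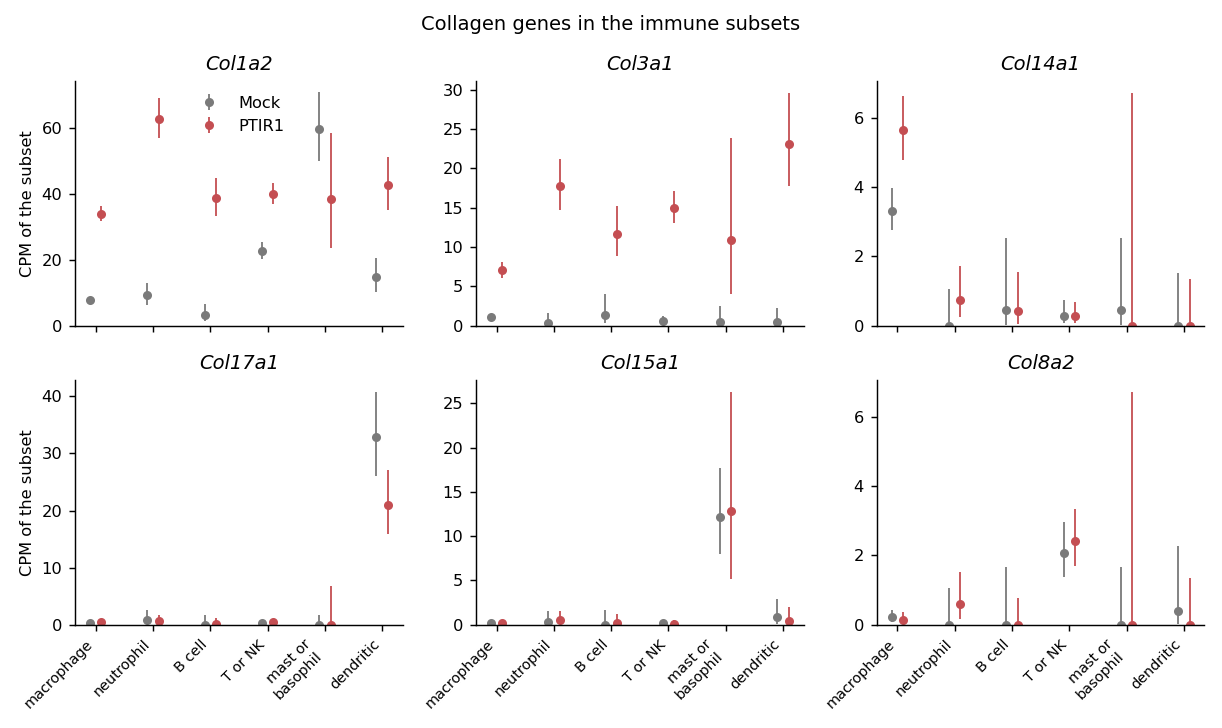
Level of 6 collagen genes (CPM of the subset, linear axes from 0) in 6 immune subsets named by their marker lists; grey is Mock, red is PTIR1, bars are 95% counting intervals. Col1a2 and Col3a1 are read in all 6 subsets, while Col14a1, Col17a1, Col15a1 and Col8a2 each stand out in 1 subset in both libraries.

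A few members instead stood out in 1 kind of immune cell, called by the marker list that led it. They were named after their values were seen. Col17a1 (chr19:47646344-47692094, minus strand), a transmembrane collagen of epithelial hemidesmosomes, was 32.8 CPM (80 UMIs) in Mock and 20.9 CPM (57 UMIs) in PTIR1 in the dendritic cell subset, and at most 0.859 CPM in the other 5 named subsets. Within that subset all its UMIs lay in the 84 Mock and 85 PTIR1 cells that resembled plasmacytoid dendritic cells by a list added after the data were seen, at 69.5 CPM (55.1 to 86.5) and 49.3 CPM (37.3 to 63.9). Conventional and migratory dendritic cells had 0 UMIs in both libraries.

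Col14a1 (chr15:55307750-55520803, plus strand), a fibril-associated collagen, was highest in the macrophage subset, at 3.32 CPM (2.76 to 3.96) in Mock and 5.64 CPM (4.79 to 6.61) in PTIR1, against 0.930 CPM or 1 UMI in the Mock decorin-led gate. It was found in 66 of 2461 Mock macrophages (2.68%) and 77 of 1594 PTIR1 macrophages (4.83%), with up to 10 UMIs in 1 Mock cell. The B cell subset held 1 and 2 UMIs in all. Col15a1 (chr4:47208161-47313167, plus strand) was 12.2 and 12.8 CPM (27 and 7 UMIs) in the mast cell or basophil subset and under 1 CPM in the other immune subsets. Col8a2 (chr4:126286793-126314330, plus strand), with no UMI in the decorin-led and tumour gates, had 29 and 36 UMIs in the T or NK cell subset. Its partner Col8a1 had 54 and 60 UMIs in that subset. Of the Col8a2 UMIs, 27 and 33 lay in NK-like cells. Col27a1 had no such place: it had 19 UMIs in 442 Mock T-like cells and 2 in 169 PTIR1 ones, and in PTIR1 it was highest in the dendritic cell subset, at 2.57 CPM from 7 UMIs.

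The remaining members were low everywhere. Col4a4, Col7a1, Col9a3, Col11a2, Col20a1 and Col23a1 had between 81 and 162 UMIs over both libraries, and none exceeded 4.04 CPM in any gate or immune subset of either library.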

How the data were processed

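Deposited UMI counts per gene and barcode were read from 2 libraries; per the file headers they were made with Cell Ranger 5.0.0. Seurat 3.2.3 and mm10 come from the submitters' processing notes. The annotation version and the use of strand in counting are not given in the sources used here. PTIR1 has no gene row, so the genotype could not be checked. Every deposited barcode held at least 500 UMIs. Symbols occurring more than once (38) include no collagen.

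Barcodes under 200 genes or above 10% mitochondrial UMIs were dropped, which left 9328 of 10833 in Mock and 7567 of 9006 in PTIR1. A cell entered the gate whose list held most of its UMIs, with at least 3 markers detected. Immune cells entered a subset with at least 2 markers. No doublets were removed for the values given, and a mixed cell stayed in the gate with more UMIs. As an alternative, the cells with the highest Scrublet scores were removed (696 Mock and 458 PTIR1, of which 0 and 24 were in the decorin-led gate). Counts were summed per gate as CPM, with exact Poisson or binomial 95% intervals. PCR and capture error are not covered. A gene was measured in a comparison with at least 50 UMIs over both sides, and called at 2-fold. A gene with no UMI was set to 3 UMIs for a bound. Shares at equal depth used cells thinned to 2000 UMIs.

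The members and lists were chosen with earlier results of these data known. Values are given for members with at least 50 UMIs in the decorin-led or tumour gate, and for up to 4 genes of a pathway list in each direction by the interval bound nearest 1. Positions come from GENCODE vM21 (44 of 44 symbols matched), upstream sequences from RefSeq. The comparison code was tested on simulated data. Of the alternatives, 10 were planned, and 3 came after seeing the data. Python 3.11.15, scipy 1.17.1, pandas 2.3.3 and scanpy 1.11.5 (Scrublet) were used.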

Additional observations from a re-analysis of the deposited data

Results flagged for a closer look

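Col1a1 differed in opposite directions between the libraries in different gates. Its PTIR1 level was 0.749 of the Mock level in the decorin-led gate, 1.30 times it in the tumour gate and 3.45 times it in the immune gate, and none of these intervals held 1. The difference between gates was not tested. Without the deepest Mock cell of the decorin-led gate the first ratio was 0.964. Over its 13 alternatives that ratio was below 1 in 12. It ranged from 0.452, with cells thinned to 2000 UMIs, to 1.70, with both gates joined.

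Collagen UMIs also appeared outside the gates. Cells of no gate held 549 CPM of summed collagen in Mock and 1441 CPM in PTIR1, and barcodes removed by the filters held 436 and 1379 CPM. The B cell subset held 14.1 and 94.2 CPM.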

How the results depend on the processing

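No paired analysis was possible because each genotype had 1 library. No member called at 2-fold turned direction, and 45 of 55 alternatives of the main counts and levels kept their value within 1.5 times or within counting error. Single-gene ratios and the levels of the other gates moved more often. Of their alternatives 427 stayed within counting error and 152 did not. The summed collagen level of the PTIR1 decorin-led gate (2275 CPM) was 2466 CPM with at least 5 markers, 2498 CPM with at least 70% of marker UMIs, 2221 CPM thinned to 2000 UMIs, 3358 CPM without mitochondrial and ribosomal protein genes, and 2185 CPM after subtracting the B cell level. Between libraries, the count of members at least 2-fold higher in PTIR1 went from 6 to 11 with both gates joined. In the tumour gate it went from 3 to 6 with each cell weighing the same and to 0 with cells thinned, where 3 members were still measured. Thinning took the count higher in the decorin-led gate from 9 to 4 in PTIR1 and from 8 to 1 in Mock, with 11 and 1 measured. Fewer measured genes follow from thinning by construction, and the cause of the other changes was not tested. Over its alternatives the decorin-led PTIR1 over Mock ratio of Col3a1 was at least 2 in 12 of 13 and reached 11.5, that of Col6a1 lay between 2.32 and 7.91 and that of Col18a1 between 1.79 and 3.98. With cells thinned, uncalled members moved further: Col5a1 went from 1.13 to 2.97, Col4a2 from 1.47 to 2.52, Col4a1 from 1.67 to 2.24 and Col8a1 from 0.846 to 1.61. Few Mock UMIs of these genes were left at that depth. In the tumour gate with at least 5 markers Col4a1 went from 1.06 to 0.499. Removing the cells with the highest Scrublet scores left both counts between libraries at 6 and 3. The depth limit is the 29 Mock cells, where 3 UMIs equal 2.79 CPM.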
